A study of Homo sapiens with 9 samples.

Results

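Hydroxyurea (HU) was compared with no treatment by γH2AX ChIP-seq in GM07027, an established human B-lymphocyte line, called GM09027A in the sample labels, through 4 of the 8 peak lists of the series. The 2 HU lists came from exponentially growing suspension cells given 2 mM HU for 24 h, and the 2 untreated lists from cells of the same line without a drug. The replicates of a group were independent biological samples of that single line grown in suspension, where dead cells are hard to take out before crosslinking. Members were all peaks on the 22 autosomes, chosen by list and chromosome and not by any measured value. There were 4779 and 4327 in untreated replicates 1 and 2, and 79891 and 69922 in HU replicates 1 and 2, so the 4 lists held 158919 of the 213253 autosomal peaks of all 8 lists.

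HU inhibits ribonucleotide reductase, the enzyme that makes deoxyribonucleotides, so replication forks run short of substrate and stall. The checkpoint kinase ATR is activated at stalled forks and phosphorylates the histone variant H2AX nearby, while the related kinases ATM and DNA-PK do so at double-strand breaks. The phosphorylated form, γH2AX, spreads into the chromatin around the lesion and recruits repair proteins, so a ChIP-seq peak marks a damaged neighbourhood rather than the lesion itself. The γH2AX found without a drug is the background against which the HU lists are set.

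The strongest sites of each kind show what a list-specific peak looks like in sequence. There were 27505 overlapping pairs of peaks in both HU lists with no untreated peak within 10 kb. In both untreated lists there were 265 such pairs with no HU peak within 10 kb. These numbers come from lists of very unequal length and give no direction. What share they make of all overlapping pairs was not counted. For each kind, the pair with the highest mean fold enrichment outside exons, on the chromosomes searched, is shown by the 300 bases at its centre. For the untreated lists the strongest such pair with a run of at least 15 A or T bases follows, a feature taken up again with the sequence results. Sequences are from GRCh38, 5′ to 3′ on the plus strand, and capitals mark the A or T runs.
HU, chr15:67941293-67941592: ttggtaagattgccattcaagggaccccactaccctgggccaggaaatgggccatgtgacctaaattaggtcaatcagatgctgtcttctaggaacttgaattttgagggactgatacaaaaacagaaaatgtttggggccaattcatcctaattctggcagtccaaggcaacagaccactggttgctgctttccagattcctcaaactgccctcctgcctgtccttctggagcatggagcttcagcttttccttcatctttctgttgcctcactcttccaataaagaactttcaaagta
untreated, chr5:97843-98142: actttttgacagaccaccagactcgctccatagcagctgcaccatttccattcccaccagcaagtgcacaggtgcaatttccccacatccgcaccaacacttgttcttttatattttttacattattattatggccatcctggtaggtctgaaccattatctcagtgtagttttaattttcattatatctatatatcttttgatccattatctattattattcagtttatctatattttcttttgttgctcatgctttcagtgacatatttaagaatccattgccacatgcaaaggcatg
untreated with run, chr9:945461-945760: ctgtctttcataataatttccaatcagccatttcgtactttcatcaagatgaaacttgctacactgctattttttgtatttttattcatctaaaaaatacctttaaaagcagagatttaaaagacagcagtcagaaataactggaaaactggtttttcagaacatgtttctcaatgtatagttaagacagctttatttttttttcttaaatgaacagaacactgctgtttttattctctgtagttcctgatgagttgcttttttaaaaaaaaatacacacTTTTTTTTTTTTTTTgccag
The HU site was intergenic, with SKOR1 as the nearest protein-coding gene at 107 kb, and had fold enrichments of 3.99 and 3.57 over background in HU replicates 1 and 2. The untreated site lay in an intron of PLEKHG4B within the first 100 kb of chromosome 5, with fold enrichments of 3.14 and 3.91. The untreated site with a run, of 15 T, lay in an intron of DMRT1, a regulator of testis development, with fold enrichments of 3.01 and 2.71.

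HU lists were longer and their peaks wider. The mean number of autosomal peaks was 16.5 times higher under HU than without treatment. The typical (median) peak spanned 534 and 550 bp without treatment and 764 and 743 bp under HU, and peaks covered 3.98 and 3.36 Mb against 89.6 and 73.8 Mb. The height of a typical peak differed far less, with a median fold enrichment of 2.64 and 2.61 without treatment and 2.70 and 2.77 under HU. Few untreated peaks had a q-value of 0.05 or less, 0.879% and 0.508%, against 78.4% and 60.3% of HU peaks. The lists hold no read numbers, so depth is unknown, and depth, shift size and treatment cannot be told apart in these totals. For that reason every call of above or below rests on the share of each list. Peak numbers are printed beside the share to show the data, and numbers alone, from lists of such unequal length, do not give a direction. Shares can change with depth as well, at chromosome ends and elsewhere, and that part was not tested. Copy number and mapping could not be examined with peak lists alone. With 2 lists against 2 the smallest p of a two-sided exact permutation test is 0.33, so no difference can reach 0.05 by that test.

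In the full lists, HU peaks stood close together. Only 24.2% and 26.3% of HU peaks had no other peak less than 5 kb away, against 74.5% and 77.0% of untreated peaks. Groups of at least 5 such neighbours held 45.3% and 42.1% of HU peaks and 13.8% and 12.4% of untreated peaks. The order turned when each list was cut to its 4327 strongest peaks by p-value, where such groups held 0.347% and 0.462% of HU peaks and 14.9% and 12.4% of untreated peaks. That cut kept all of untreated replicate 2 and most of replicate 1, but only a small part of each HU list. Thinning a list removes neighbours, so the cut cannot show whether HU peaks were less crowded. A longer list has more neighbours by number alone, so the full lists cannot show whether HU peaks were more crowded. Of the cut untreated peaks, 73.7% and 77.0% still stood alone, against 83.7% and 82.3% of HU peaks. The fullest group in each untreated list was on chromosome 9, across the genes DOCK8 and KANK1. It held 65 peaks from 324173 to 766891 in replicate 1 and 68 peaks from 361650 to 765585 in replicate 2.

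Untreated peaks crowded at chromosome ends, and HU peaks did not. The first and last 5 Mb of the autosomes, which are 7.65% of autosomal length, held 30.4% and 30.5% of untreated peaks (95% exact binomial interval, counting error only, 29.1 to 31.7 and 29.1 to 31.9). They held 7.77% and 8.07% of HU peaks (7.58 to 7.96 and 7.87 to 8.28). The difference of the means was -22.5 percentage points (SD 0.0692 untreated and 0.216 HU, n = 2 each, exact permutation p = 0.33), and it stayed at -18.0 when the first 5 Mb of chromosome 9 were left out. Most of it lay in the outermost 1 Mb, which is 1.35% of assembled bases and held 20.3% and 20.6% of untreated peaks but 1.62% and 1.78% of HU peaks. In number this was 971 and 890 untreated peaks against 1292 and 1242 HU peaks, so the HU lists held more there in number and far less as a share. Between 2 and 3 Mb the 4 lists were close, at 1.20 and 1.07 times the share of assembled bases without treatment and 1.01 and 1.01 times under HU. Between 3 and 9 Mb the order varied, and from 9 Mb inwards both HU lists were higher, with 1.05 and 1.02 against 1.38 and 1.41 at 10 to 15 Mb and 0.428 and 0.461 against 0.693 and 0.674 beyond 60 Mb. The size of the difference depended on how a peak was counted, being -53.7 among peaks enriched 3-fold or more and -9.54 after peaks less than 5 kb apart were merged, always with HU lower.

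**Figure D1:**
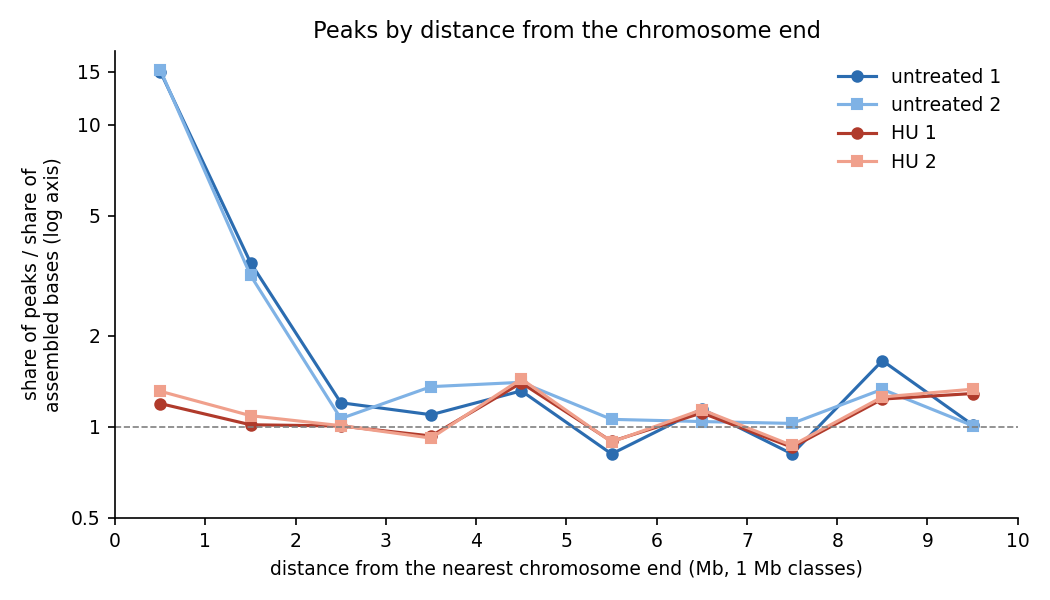
Share of autosomal peaks divided by share of assembled bases (log axis) in each 1 Mb class of distance from the nearest chromosome end, 1 line per list. Both untreated lists start at about 15 times the share of bases in the outermost 1 Mb and fall to between 0.814 and 1.66 from 2 Mb inwards, while both HU lists stay between 0.856 and 1.44 over the 10 Mb plotted.

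The ends were not alike. Of 39 ends of 5 Mb with enough assembled sequence, both HU shares lay below both untreated shares at 30, above at 4, and overlapped at 5. The short-arm end of chromosome 9 was the largest, with 287 and 286 untreated peaks, or 6.01% and 6.61% of each list, against 157 and 144 HU peaks, or 0.197% and 0.206%. Next were both ends of chromosome 17, with 138 and 116 untreated against 388 and 343 HU peaks at the start and 134 and 117 against 297 and 307 at the end. At 4 ends both HU lists held fewer peaks in number than both untreated lists, although they were many times longer. Besides chromosome 9, these were the start of chromosome 2 (46 and 39 untreated, 10 and 11 HU), the start of chromosome 5 (40 and 41 untreated, 19 and 10 HU) and the end of chromosome 18 (31 and 43 untreated, 19 and 18 HU). The opposite was seen at the start of chromosome 19, on the most gene-dense autosome, with 13 and 6 untreated against 427 and 438 HU peaks, or 0.272% and 0.139% against 0.534% and 0.626%. The starts of chromosomes 3 and 7 and the end of chromosome 20 were the other 3 ends above.

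In 1 Mb bins, 480 of 2765 bins had at least 3 peaks expected in the shortest list and were compared. Both HU shares lay above both untreated shares in 257 (53.5%) and below in 81 (16.9%). Because the shares of a list add to the whole, the crowding of untreated peaks at ends lowers their share everywhere else, and with the first and last 5 Mb of every autosome left out, the counts were 113 above and 78 below of 338. Leaving out untreated replicate 1 or 2 raised the number below to 124 or 174. Merging neighbouring peaks turned the balance to 83 above and 151 below of 402, and 34 of the 196 bins above that could still be compared then lay below. Bins below were often terminal, with 35.8% in the first or last 5 Mb, against 5.45% of bins above and 12.7% of those compared. Only 1 run of at least 3 neighbouring bins lay below, the first 3 Mb of chromosome 9 with 278 and 277 untreated and 81 and 83 HU peaks, against 21 such runs above.

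The 10 bins with the largest deficit under HU were all within 2 Mb of an end. Each kept its direction after merging, and among peaks enriched 3-fold or more 5 could still be compared and lay below. The bins were chosen for their deficit in these same peaks, so the recounts are no separate support. Some of the 10 passed the limit only through their untreated peaks, so their direction was set by the filter. The bin from 1 to 2 Mb of chromosome 9, which holds DMRT2 and the start of SMARCA2, a chromatin remodelling ATPase, had 150 and 124 untreated and 16 and 13 HU peaks. The first bin of chromosome 9 had 119 and 143 untreated and 50 and 55 HU peaks. The first bin of chromosome 2 held SH3YL1, ACP1 and TMEM18 and went from 44 and 35 untreated peaks to 0 and 1 HU peaks. The first bin of chromosome 5, with PLEKHG4B, SDHA and AHRR, had 39 and 37 untreated and 10 and 6 HU peaks. In all 4, the groups did not overlap even in number. Away from the ends, the pair of bins from 26 to 28 Mb of chromosome 6, where the main histone gene cluster lies, held 0.921% and 0.670% of untreated peaks (44 and 29) and 0.163% and 0.143% of HU peaks (130 and 100). That region was chosen after its values were seen. Of all 2765 bins, 35 held fewer peaks in number in both HU lists than in both untreated lists, and 10 of them were in the first or last 5 Mb. Most of the 35 were under the limit of 3 expected peaks, many with only 1 and 1 untreated against 0 and 0 HU peaks.

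Most single genes that could be compared lay near chromosome ends. Only 23 of 19111 autosomal protein-coding genes had at least 3 peaks expected in the shortest list, and most reached this through their untreated peaks, so their direction was set by the filter and is described here without a test. Both HU shares lay below both untreated shares in 21 of the 23 (91.3%), above in none (0%), and 16 of the 21 were in the first or last 5 Mb. DOCK8, a guanine nucleotide exchange factor needed for lymphocyte migration, had 49 and 52 untreated peaks and 17 and 22 HU peaks, or 1.03% and 1.20% against 0.0213% and 0.0315% of each list. Its neighbour KANK1, a cytoskeletal regulator, had 25 and 38 untreated and 24 and 21 HU peaks. DMRT1, further along the same end, had 28 and 28 untreated peaks and 3 and 3 HU peaks. At the start of chromosome 17, VPS53, a tethering factor of the Golgi, had 43 and 41 untreated and 9 and 18 HU peaks. NXN, a thioredoxin-related redox regulator next to it, had 40 and 28 untreated peaks and none in either HU list, which allows a share of up to 0.00376% and 0.00429% there. At the other end of the chromosome, TBCD, a tubulin folding cofactor, had 44 and 41 untreated and 11 and 15 HU peaks.

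The remaining genes of the 12 with the largest deficits followed the same order. On chromosome 21, DIP2A had 31 and 32 untreated and 14 and 13 HU peaks, and PCNT, a centrosome scaffold, had 19 and 12 untreated and 3 and 4 HU peaks. PLEKHG4B went from 20 and 19 untreated peaks to 0 and 3, and PARD6G, a cell polarity protein, from 17 and 20 to 3 and 4. SHANK3, a scaffold of excitatory synapses, had 11 and 13 untreated and 5 and 4 HU peaks, and SLC6A13, a GABA transporter, had 10 and 13 untreated and 1 and 0 HU peaks. In each of the 12, even the number of peaks was lower in both HU lists, and 56 genes of all 19111 met that condition. Most of the 56 were under the limit of 3 expected peaks, some with only 1 and 1 untreated against 0 and 0 HU peaks. The 2 genes compared whose groups overlapped were PEBP4, with 4 and 3 untreated and 58 and 49 HU peaks, and RAD51B, a gene of homologous recombination, with 5 and 5 untreated and 90 and 81 HU peaks.

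**Figure D2:**
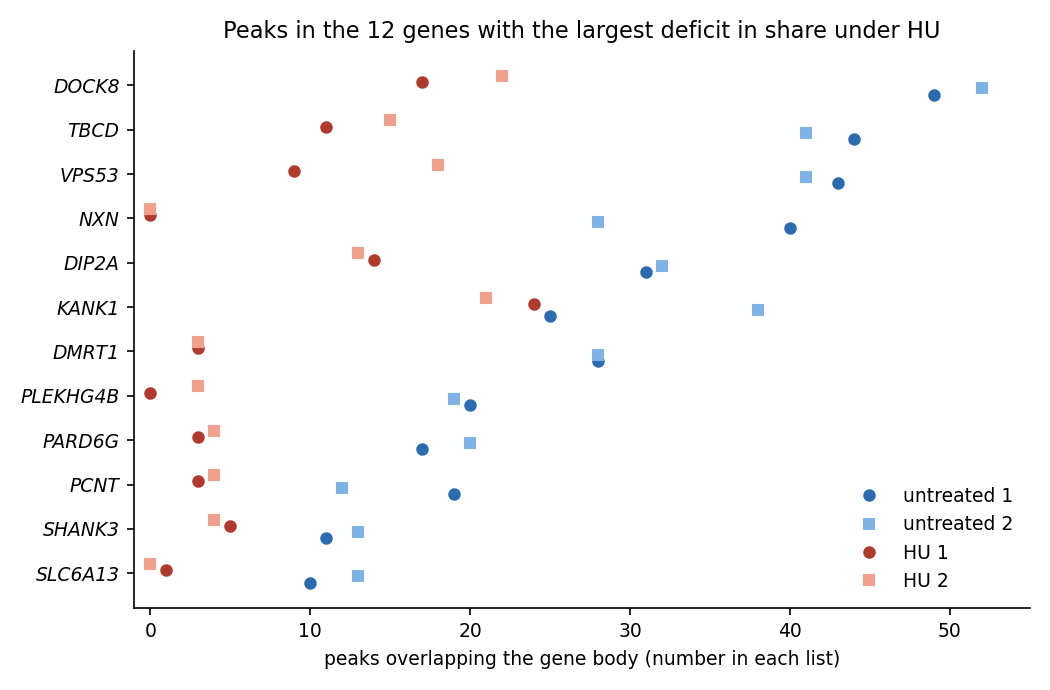
Number of peaks overlapping each gene body in each of the 4 lists for the 12 genes with the largest deficit in share under HU, 1 point per list. In every gene the 2 HU points lie to the left of both untreated points, and NXN has none under HU.

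With a limit of 1 expected peak, added after these values were seen, 306 genes were compared, 43 lay above (14.1%) and 176 below (57.5%). With no limit, 7173 of 19111 genes lay above (37.5%) and 496 below (2.6%), and 7080 of the genes above had no untreated peak in either list. The largest excess without a limit was in LHFPL2, with 0 and 0 untreated and 53 and 37 HU peaks, followed by RAB11FIP4, an effector of Rab11 in vesicle recycling, with 0 and 0 against 31 and 37. RBM20, a splicing regulator, had 1 and 0 untreated and 38 and 41 HU peaks. RDX, a membrane-cytoskeleton linker, had 0 and 0 against 30 and 31, and RNF111, a ubiquitin ligase, 0 and 0 against 30 and 28. These genes were chosen after their values were seen, and an absence from the short untreated lists is a weak limit, since a count of 0 allows a share of up to 0.0628% and 0.0693% in the untreated lists while LHFPL2 had 0.0663% and 0.0529% under HU.

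The bins compared were gene-dense in either direction. The median was 15 gene starts in bins above, 12 in bins below and 14 in all those compared, against 4 over all 2765 bins. Most bins named next had few untreated peaks and passed the limit only through their HU peaks, so their direction was set by the filter. The bin with the largest excess lay at 196 to 197 Mb of chromosome 3, around TFRC (the transferrin receptor), RNF168 (a ubiquitin ligase that reads γH2AX chromatin) and PAK2, with 3 and 2 untreated and 204 and 176 HU peaks. It was followed by 122 to 123 Mb of chromosome 12 with BCL7A, DIABLO and CLIP1 (1 and 1 untreated, 152 and 159 HU), and by 102 to 103 Mb of chromosome 10 with NFKB2, a subunit of the NF-κB transcription factors (1 and 3 untreated, 172 and 166 HU). The bin at 118 Mb of chromosome 11 holds CXCR5, KMT2A and the CD3 genes (6 and 0 untreated, 178 and 160 HU), that at 42 Mb of chromosome 17 holds STAT3, STAT5A and STAT5B (8 and 3 untreated, 208 and 204 HU), and that at 122 Mb of chromosome 3 holds CD86 (1 and 1 untreated, 139 and 123 HU). The 10 bins with the largest excess hold 9 to 44 gene starts each, so the genes named are a selection. Peaks were counted over the whole 1 Mb and not in those genes. All 10 stayed above with equal numbers of the strongest peaks, and 5 of the 9 that could still be compared did so after merging. None of the 10 could be compared among peaks enriched 3-fold or more. The bins were chosen for their excess in these same peaks, so the recounts are no separate support. The longest runs of bins above were of 5 bins, at 24 to 29 Mb of chromosome 2, 31 to 36 Mb of chromosome 20 and 38 to 43 Mb of chromosome 22.

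When all 2765 bins were ordered by their protein-coding gene starts and divided into 5 equal classes, HU peaks were rarest where genes were few. The class with the fewest, of 0 or 1 gene start and 19.9% of assembled bases, held 0.963% and 1.90% of untreated peaks (46 and 82) but 0.315% and 0.273% of HU peaks (252 and 191). The next class held 8.10% and 9.29% against 4.06% and 3.76%. The class with the most, at least 11 gene starts, held 51.3% and 45.7% of untreated and 53.9% and 55.9% of HU peaks. Cut to 4327 peaks each, the lists stood further apart there, at 51.1% and 45.7% against 64.2% and 65.9%, whereas after merging the groups overlapped, at 51.9% and 45.9% against 46.1% and 47.7%. They also overlapped without the first 5 Mb of chromosome 9, at 54.6% and 48.9% against 53.97% and 56.0%. The deficit in the lowest class was present under both, with 0.948% and 1.90% against 0.277% and 0.0462% for the strongest peaks and 1.16% and 2.16% against 0.504% and 0.469% after merging. Across bins, the rank correlation of peak share with gene starts was 0.769 and 0.765 for the HU lists and 0.578 and 0.539 for the untreated lists (n = 2765 bins, which share list length and GC content).

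**Figure D3:**
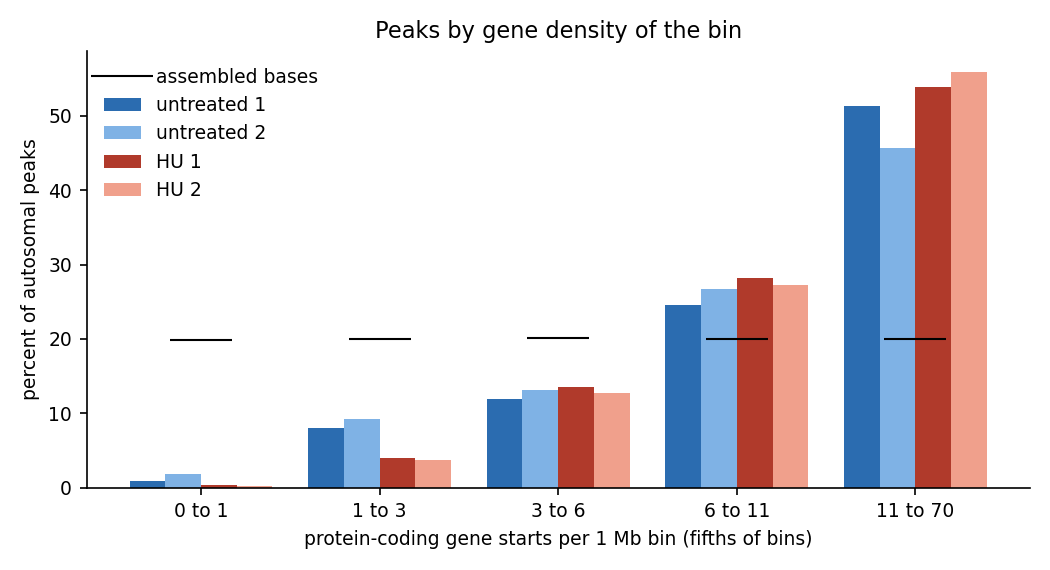
Percent of autosomal peaks of each list in 5 equal classes of 1 Mb bins ordered by protein-coding gene starts, with a black line for the percent of assembled bases. The HU bars are under 0.4% in the lowest class and at 53.9% and 55.9% in the highest.

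Between chromosomes, both HU shares lay above both untreated shares for 13 of 22 autosomes (59.1%) and below for 7 (31.8%), and chromosomes 6 and 8 overlapped. The highest ratios of mean HU to mean untreated share were 1.64 for chromosome 19, 1.62 for 7, 1.51 for 13 and 1.36 for 3. Chromosome 19, the most gene-dense, held 3.12% and 2.66% of untreated and 4.57% and 4.91% of HU peaks, and was above with the ends left out and in each of the 4 other subsets of peaks. The lowest ratios were 0.345 for chromosome 9, 0.363 for 21, 0.637 for 18 and 0.647 for 17. Chromosome 9 held 10.7% and 10.98% of untreated peaks and 3.71% and 3.78% of HU peaks, and without the first and last 5 Mb it was still below, at 6.16% and 5.75% against 3.61% and 3.64%. Chromosomes 21, 18 and 16 also stayed below without the ends. Chromosomes 5, 17 and 22 then overlapped, as did 1 and 11, which had been above, while 14 and 20 went from above to below and 6 from overlap to below. That left 9 chromosomes above. Other subsets of peaks moved further calls. Chromosome 22 turned above with equal numbers of the strongest peaks and among peaks enriched 3-fold or more. Chromosome 16 overlapped under the first and turned above under the other, and after merging 18 overlapped, 5 turned above and 20 below. Of those above, chromosomes 2, 4 and 13 overlapped under the first, 10 and 13 under the other, and 1, 11 and 15 after merging. Chromosome 20 overlapped without the first 5 Mb of chromosome 9. Chromosome 8 turned from overlap to below under the first and the other, and 6 to below under the first and above under the other. Chromosomes 9, 17 and 21 stayed below, and 3, 7, 12, 14 and 19 above, in all 4 subsets. HU share over share of assembled bases followed gene starts per Mb (rank correlation 0.913, n = 22 chromosomes, which share GC content), with 0.804 for the untreated lists. The ratio of HU to untreated share had a rank correlation of -0.0774 with gene starts per Mb.

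**Figure D4:**
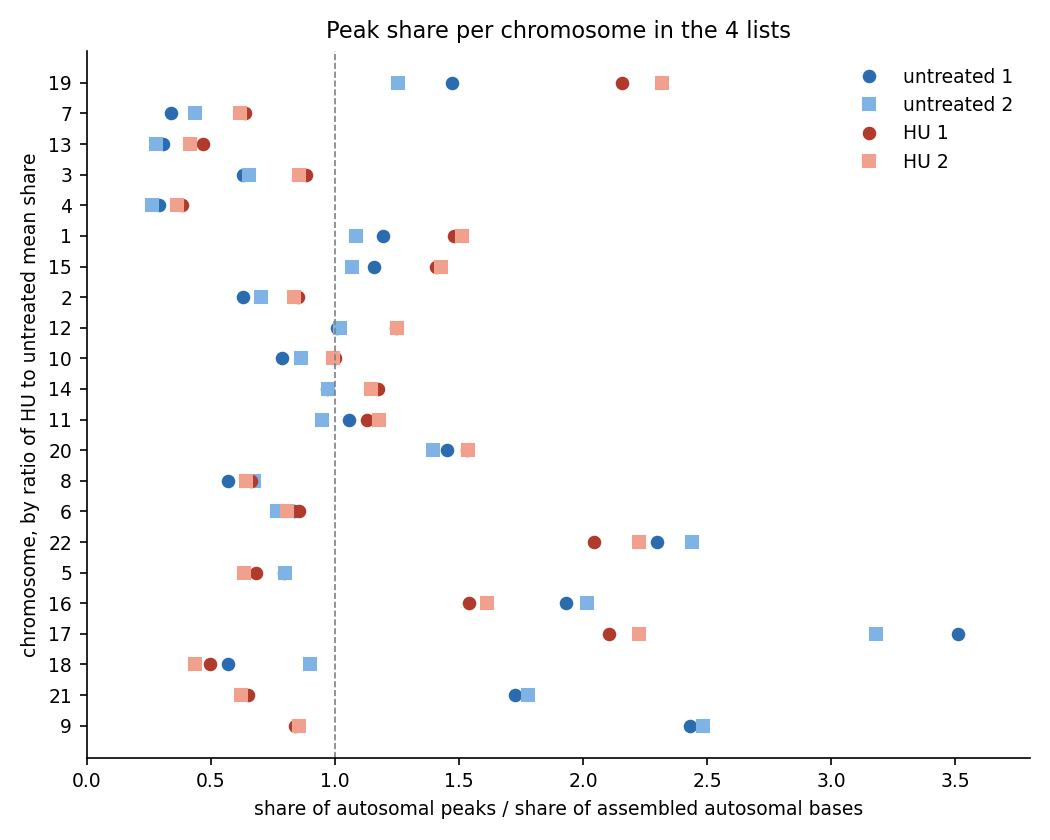
Share of autosomal peaks divided by share of assembled autosomal bases for each autosome, 1 point per list, ordered by the ratio of HU to untreated mean share. Chromosomes 9, 17 and 21 stand out with untreated points far to the right of the HU points, and chromosome 19 with the reverse.

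Genes as a class gave differences that turned with the choice of peaks. Midpoints in protein-coding gene bodies, which cover 45.3% of assembled bases, made up 52.7% and 52.9% of untreated and 58.1% and 57.9% of HU peaks, a difference of 5.203 points (exact permutation p = 0.33). With equal numbers of the strongest peaks it was -0.913, among peaks enriched 3-fold or more -1.30, and after merging 12.02. Peaks within 1 kb of a protein-coding start were 2.78% and 2.47% of the untreated and 3.43% and 3.47% of the HU lists. This share stayed higher under HU in every alternative, with differences from 0.427 to 5.69 points, the largest after merging. Here any overlap counted and not the midpoint, so a wider peak reaches a start more easily. The median width was 534 and 550 bp without treatment and 764 and 743 bp under HU, and the part of width was not tested. The number of gene starts within 500 kb of a peak averaged 14.3 and 12.9 without treatment and 15.1 and 15.6 under HU. It reversed after merging, to -0.533, and with the first and last 5 Mb of every autosome left out the groups overlapped, at 14.8 and 13.2 against 14.8 and 15.2.

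HU peaks were scarce in long genes. Genes under 50 kb held 19.5% and 16.3% of untreated and 23.6% and 24.3% of HU peaks, whereas the 309 genes of at least 500 kb, which cover 9.28% of assembled bases, held 2.62% and 3.54% of untreated and 1.16% and 1.13% of HU peaks. In a list of 20 long neuronal genes, which would take 0.926% of evenly spread peaks, there were 7 and 11 untreated peaks and 2 and 7 HU peaks, or 0.146% and 0.254% against 0.00250% and 0.0100%. No HU peak lay in 17 of the 20, against 36.5% of all genes, and no untreated peak in 15, against 85.3% of all genes. Among the 17 were RBFOX1, a neuronal splicing factor, and PTPRD, a receptor phosphatase of synapses. DAB1, an adaptor of reelin signalling, had 3 and 3 untreated and 1 and 5 HU peaks. Cut to equal numbers of the strongest peaks, the list had 7 and 11 untreated and 0 and 0 HU peaks.

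Common fragile sites are long, late-replicating regions that break under mild replication stress, and 20 genes were taken to represent them. They held 17 and 16 untreated and 108 and 96 HU peaks, or 0.356% and 0.370% against 0.135% and 0.137%, where an even spread would give 0.973%. RAD51B alone held 90 and 81 of the HU peaks. Without it the list had 12 and 11 untreated peaks (0.251% and 0.254%) and 18 and 15 HU peaks (0.0225% and 0.0215%). FHIT, the tumour suppressor gene at FRA3B, had 0 and 2 untreated and 2 and 1 HU peaks, and WWOX, at FRA16D, had 5 and 1 untreated and 0 and 0 HU peaks. No HU peak lay in 12 of the 20, against 36.5% of all genes, and no untreated peak in 8, against 85.3% of all genes. The median length of the 20 genes was 1359 kb, against 27.9 kb over all genes. With no limit on expected peaks, 3 of the 20 lay above and 3 below, and of the long neuronal genes none lay above and 2 below, beside 37.5% above and 2.6% below over all genes.

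Genes of the pathways that HU acts on are described next. Of 18 genes of deoxyribonucleotide supply, 11 had a peak in both HU lists, against 48.8% of all genes, and none had one in both untreated lists, against 3.07% of all genes. RRM1 and RRM2, the subunits of ribonucleotide reductase, had 0 and 0 untreated against 3 and 1 HU peaks, and 1 and 0 against 5 and 4, and as shares the RRM2 groups overlapped. SAMHD1, which degrades deoxyribonucleotides, had 0 and 0 against 16 and 9. Of 17 genes of the ATR and CHK1 checkpoint, 11 had a peak in both HU lists, with 1 and 1 against 16 and 20 in RAD9A, a subunit of the checkpoint clamp whose shares overlapped, and no peak in any of the 4 lists in ATR. Of 11 autosomal genes of H2AX phosphorylation and its readers, 8 had a peak in both HU lists, among them TP53BP1 with 0 and 1 against 9 and 9, overlapping as shares, and RNF8, a ubiquitin ligase that acts on γH2AX chromatin, with 0 and 0 against 10 and 10. The short H2AX gene had none in any list.

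For 25 genes of fork protection and recombination the number was 17, with BLM, a helicase, at 0 and 1 against 10 and 10 (overlapping as shares), RAD50 at 0 and 0 against 16 and 8, and BRCA2 at 0 and 0 against 0 and 1. For 26 genes of the replication machinery it was 20, with POLA2, a subunit of polymerase α-primase, at 1 and 0 against 10 and 9, again overlapping as shares. For 25 B lymphocyte genes it was 19, with CIITA, the regulator of MHC class II genes, at 1 and 2 against 25 and 17, overlapping as shares, and POU2AF1, a B-cell coactivator, at 0 and 1 against 22 and 21, above as a share. POU2F2, a B-cell transcription factor, had 2 and 4 untreated and 24 and 24 HU peaks, which as shares lay below under HU, at 0.0418% and 0.0924% against 0.0300% and 0.0343%. With no limit on expected peaks, the numbers above were 7 of 18, 8 of 17, 6 of 11, 14 of 25, 18 of 26 and 14 of 25. These are in the order of the lists, beside 37.5% of all genes. Of them 7, 8, 6, 14, 18 and 12 had no untreated peak in either list, so a peak in both HU lists set the call. The median gene length of the lists was 28.3 to 76.8 kb, against 27.9 kb over all genes. The part of gene length was not tested. The median difference in share was between 0.000715 and 0.00277 points, beside 0.000626 over all genes. In these lists 1 replication gene and 2 B lymphocyte genes lay below. RAD51B, which is in both the recombination and the fragile site list, was the only member of any list with at least 3 peaks expected, and the lists were chosen with earlier results of these data known.

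At peak centres, long runs of A or T were more frequent under HU. The central 500 bp held a run of at least 15 A or 15 T in a row in 2.16% and 2.63% of untreated peaks and 7.16% and 6.999% of HU peaks, beside 6.72% of all 500 bp windows of the autosomes. HU peaks were thus near the genome's level and untreated peaks below it. The difference was 4.68 points (SD 0.339 untreated and 0.113 HU, n = 2 each, exact permutation p = 0.33), and HU was higher in every alternative, by 1.58 to 5.64 points. It was also higher in both HU lists in each of 5 classes of GC content. In the class of 45 to 50% GC the shares were 2.44% and 3.09% without treatment (n = 1515 and 1358 peaks) against 9.65% and 9.47% under HU (n = 22363 and 20190). Under 35% GC the intervals of the lists overlapped, at 2.58% and 2.90% against 4.05% and 3.58%.

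**Figure D5:**
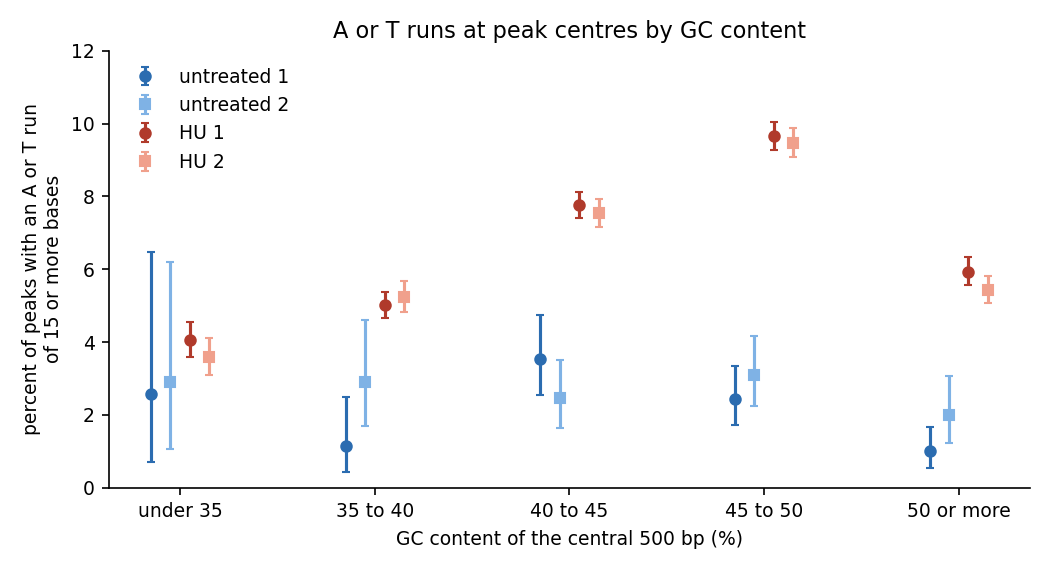
Percent of peaks with a run of at least 15 A or 15 T in the central 500 bp, by GC content of those 500 bp, 1 point per list with its 95% exact binomial interval (counting error only). Both HU points lie above both untreated points in each of the 5 classes, least so under 35% GC.

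GC content and G-quadruplex motifs differed less. The central 500 bp averaged 46.5% and 45.4% GC without treatment and 44.2% and 44.7% under HU, all above the 41.0% of autosomal windows. The difference of -1.55 points became 0.190 among peaks enriched 3-fold or more. G-quadruplex motifs, 4 runs of at least 3 G on either strand with loops of 1 to 7 bases, were in 5.52% and 5.18% of untreated and 4.56% and 4.93% of HU peaks, and in 5.14% of windows. That difference of -0.603 points also reversed there, to 0.871.

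The lists of cells treated with aphidicolin (APH), a DNA polymerase inhibitor, and methyl methanesulfonate (MMS), a DNA alkylating agent, share the untreated controls and are given only side by side. The first and last 5 Mb held 18.0% and 18.3% of APH and 14.5% and 13.0% of MMS peaks. NXN had 49 and 48 APH and 11 and 3 MMS peaks, beside none under HU. Runs of at least 15 A or T were in 3.31% and 3.16% of APH and 2.79% and 3.25% of MMS peaks. The fragile site genes other than RAD51B held 387 and 134 APH and 38 and 37 MMS peaks, beside 18 and 15 under HU, and the long neuronal genes 36 and 33 APH and 29 and 21 MMS peaks, beside 2 and 7.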

How the data were processed

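γH2AX ChIP-seq peak lists of 2 HU-treated and 2 untreated replicates were analysed, beside 2 lists each of APH and MMS. The authors aligned paired-end reads to GRCh38 (hg38) with Bowtie2, discarded poorly mapped reads and PCR duplicates with SAMtools, and used MACS2 in its broad mode, replicate by replicate, at p-values up to 0.001, with a shift size set for each library. The deposited lists give each peak's fold enrichment as a ratio, and the −log10 of its p-value and of its q-value, as the caller wrote them. Lists hold no reads, so depth is unknown and a higher depth or another shift size could lengthen a list. The input library was not analysed here.

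Peaks on chromosomes 1 to 22 were counted by midpoint in 1 Mb bins (at least 500 kb assembled) and chromosomes, and by overlap of at least 1 bp in 19111 protein-coding genes of GENCODE release 44, as a share of each list's autosomal peaks. A feature was compared if its mean share gave at least 3 peaks in the shortest list, and called above or below where both HU shares lay beyond both untreated shares. Single values were compared by the two-sided exact permutation test over lists, whose smallest p is 0.33. The rule named the 10 bins and 12 genes each way with the largest differences and the 4 chromosomes each way with the largest ratios. No gene lay above, so the genes above were named from counts without a limit. Members, lists and rules were chosen with earlier results of these data known. Counting was tested on simulated lists. Python 3.11.15, numpy 2.4.6, pandas 2.3.3, scipy 1.17.1 and matplotlib 3.10.9 were used. Some list members and site sequences are not reported here.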

Additional observations from a re-analysis of the deposited data

How the results depend on the processing

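With 2 lists a group, the exact permutation test used here cannot pass 0.05, so results are compared by direction and size. The 4 lists share only replicate numbers, which the labels do not tie to a shared culture or day. Deviations from the group means correlated at -0.108 over bins, 0.199 over genes and -0.502 over chromosomes (Pearson). Taking the replicate block by number gave 268 bins above and 87 below, 14 chromosomes above and 7 below, and 1 gene above and 21 below, and crossing the pairs, added after seeing the data, gave 274 and 92 bins and 13 and 7 chromosomes.

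Equal numbers of the strongest peaks gave 53 bins below, 4 genes above, and differences of -0.913 in gene bodies (reversed), 2.68 at gene starts, 4.25 in gene starts around peaks, -0.495 in GC, 5.64 in A or T runs, -0.139 in G-quadruplex motifs and -22.2 at ends. Keeping peaks enriched 3-fold or more, of which the untreated lists held 245 and 183, left 5 bins and 1 gene to compare and gave 0 bins above, 5 below and 1 gene below, with -1.30 in gene bodies, 0.190 in GC and 0.871 in G-quadruplex motifs (all reversed), 0.427 at gene starts, 5.62 in gene starts around peaks and -53.7 at ends. Merging peaks less than 5 kb apart gave 83 bins above, 151 below, 7 genes below, -0.533 in gene starts around peaks (reversed), 12.02 in gene bodies, 5.69 at gene starts, 5.41 in A or T runs and -9.54 at ends. Counting covered bases gave 41 bins below and 3 genes above. Leaving out the first 5 Mb of chromosome 9 gave 4.41 in gene bodies and -18.0 at ends. Leaving out the first and last 5 Mb of every autosome, added after seeing the data, gave 113 bins above, 4 genes below, 5.87 in gene bodies, 1.14 at gene starts and 5.13 in A or T runs.

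With no limit on expected peaks there were 857 bins above and 325 below and 7173 genes above and 496 below, with at least 6 expected 79 and 35 bins and 10 genes below, and with at least 1 expected, also added later, 43 genes above and 176 below. Other windows gave 1.53 at starts (5 kb), 0.425 gene starts (100 kb) and 1.58 for runs of at least 20. The cause of these shifts was not tested beyond the fewer peaks or features that a setting leaves.

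Leaving out 1 list at a time gave 224 to 380 bins above and 100 to 174 below, 13 to 14 chromosomes above and 7 to 8 below, 0 to 1 genes above and 17 to 31 below, 5.08 to 5.32 in gene bodies, 0.664 to 0.975 at starts, 1.000 to 2.43 gene starts around peaks, -2.10 to -0.997 in GC, 4.44 to 4.92 in A or T runs, -0.789 to -0.416 in G-quadruplex motifs and -22.6 to -22.3 at ends. Bins below moved most without untreated replicates, to 124 without the first and 174 without the other. Without depth or read counts, no region without a peak can be called free of γH2AX.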
